A study of Mus musculus with 4 samples.

Results

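The 41 genes described here encode the kinetochore, the spindle checkpoint and the enzymes that release sister chromatids, and they were picked by gene symbol alone out of 27293 genes in a table of RNA-seq counts. The pattern took the centromere protein genes with a single letter after Cenp, the Aurora kinases Aurka and Aurkb, the subunits of the Ndc80 complex, subunits of the Mis12 and Knl1 complexes, the checkpoint genes, the chromosomal passenger complex, Plk1, Cdc20 and Espl1, and left out Cenpj, whose product belongs to the centriole.

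The kinetochore is the protein assembly that is built on the centromere of each chromosome in mitosis and binds the ends of spindle microtubules. While any kinetochore lacks microtubules, the spindle checkpoint holds the anaphase-promoting complex inactive by keeping its activator Cdc20 bound. Once all are attached, Cdc20 is freed, securin and cyclin B are degraded, and separase cuts the cohesin that holds sister chromatids together. Most of these genes are known to be transcribed in cells preparing to divide. In the embryonic cortex at this age such cells are mainly progenitors of the ventricular and subventricular zones, while neurons have left the cell cycle. The RNA came from tissue that holds progenitors and neurons together, so how much of each gene's count came from neurons was not tested.

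Telencephalic tissue of C57BL/6 mouse embryos at embryonic day 13 (E13) gave 4 libraries, 2 labelled wild type (WT) and 2 labelled STINGf/f;Nestin-Cre (cKO), in which Cre under the Nestin promoter recombines floxed STING alleles in neural progenitors and their progeny, so that other cells of the tissue, such as blood, are not its target. The labels do not say whether the WT embryos carried floxed alleles or Cre, and the title of WT 2 ends in "nes" while its genotype label reads WT. Nothing says whether a library holds 1 embryo or a pool, so p-values measure the spread between these libraries only. The study compared the groups to see which transcripts in the developing cortex depend on STING, an innate immune adaptor of the endoplasmic reticulum.

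The libraries held 17209654 to 18533391 counts on genes, of which 0.2802% to 0.2999% fell on the 41 genes. The STING gene, listed as Tmem173, was counted 20 and 19 times in WT 1 and WT 2 and 18 and 22 times in cKO 1 and cKO 2, and since the floxed part is not given in the sources used here, this count does not check the deletion. Libraries are therefore called by their labels. The cortical markers that define the tissue were present (8 progenitor markers summed to 2116 to 2359 CPM and 8 neuron markers to 4894 to 5883 CPM), where CPM is the count per 1000000 counts of the library after scaling by edgeR. All 6 meningeal and mesenchymal markers were highest in WT 1, with a sum of 279 CPM against 36.7 to 72.7 CPM in the other libraries. WT 1 also had the highest sums of 4 choroid plexus markers (25.9 CPM against 1.06 to 2.84 CPM, with Folr1 at 0 in WT 2), 6 blood markers (950 CPM against 434 to 659 CPM) and 4 endothelial markers (146 CPM against 97.2 to 109.9 CPM). The sum of 7 ventral markers was 636 CPM in cKO 1 against 958 to 998 CPM elsewhere. Their part in the values below was not tested. Y-linked transcripts (4 genes) summed to 2735 and 0 counts for WT 1 and WT 2 and to 3002 and 1848 for cKO 1 and cKO 2. Bulk libraries cannot tell fewer dividing cells from less RNA per dividing cell.

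All 41 genes passed the filter on low counts, with 50 to 5490 counts in a library, and 0 of 41 met both thresholds the study states for cKO against WT, a 2-fold change or more and an unadjusted p no higher than 0.05. In edgeR's quasi-likelihood test 0.811% of the 16145 genes tested passed them. At an unadjusted p of at most 0.05 with no fold threshold the count was 0 of 41 against 1.23% of all genes, and at a Benjamini-Hochberg adjusted p under 0.05 it was 0 of 41 against 0 genes (0%) in all. DESeq2 also gave 0 of 41 at each threshold. Over all 16145 genes it passed 65 at the study's thresholds, 127 (0.787%) at the unadjusted p and 0 at the adjusted p. In edgeR's test the smallest unadjusted p was 0.0895, for Spc24, and the adjusted p was 0.9999 for every one of the 41.

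The intervals say how large a difference could have gone unseen. For 39 of the 41 genes the 95% confidence interval of the fold change lay inside a 2-fold change in either direction, the exceptions being Cenpk and Cenpw. Log2 fold changes ran from -0.39 to 0.33 with standard errors of 0.14 to 0.66. They were above 0 for 24 genes (58.5%) and below 0 for 17, against 47.9% above 0 over all genes tested, and their median was 0.03 against -0.01 over all genes.

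**Figure D1:**
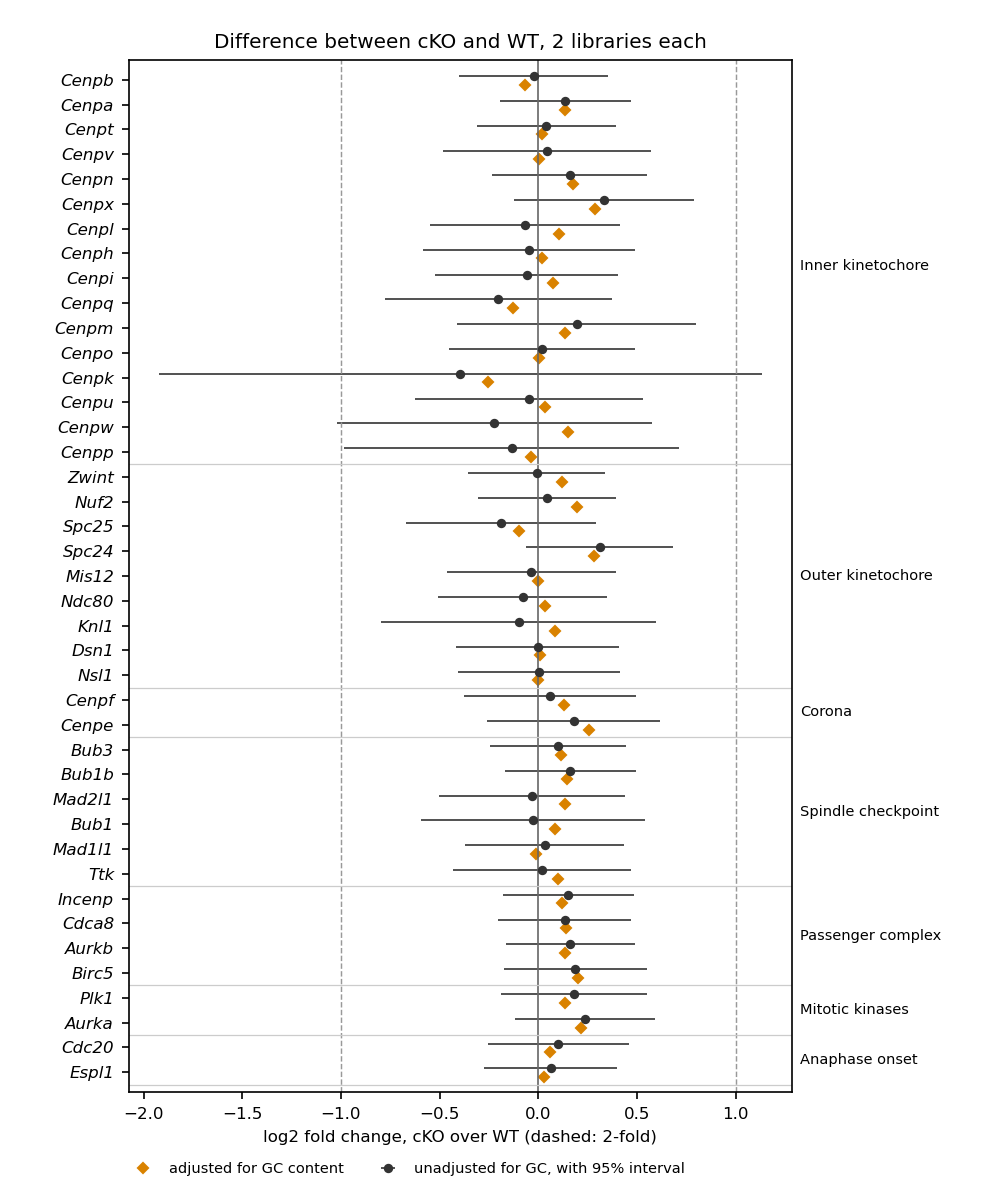
Log2 fold change of each of the 41 genes, cKO over WT, with its 95% confidence interval (dark points and bars, 2 libraries a group) and the value after an adjustment for GC content (orange diamonds), in functional groups; dashed lines mark a 2-fold change. Every interval spans 0, and only those of Cenpk and Cenpw reach past a dashed line.

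Ranges of the libraries give a second view. Both cKO values lay above both WT values for 10 of the 41 genes (24.4%), against 11.0% of all genes tested, and both lay below for 0 of 41, against 10.8%. The 10 genes were Bub1b, Cenpa, Cenpn, Cenpx, Aurka, Spc24, Aurkb, Birc5, Cdca8 and Incenp, and the groups overlapped for the other 31. None of the 10 passed a threshold on p, and the genes are not independent of each other, since most are known to be transcribed together in cells preparing to divide. Of 10 markers of dividing cells, 5 had both cKO values above both WT values. All 10 had a log2 fold change above 0 (0.04 to 0.18, 0 of 10 with an unadjusted p of at most 0.05), and their summed level was 2404, 2462, 2692 and 2512 CPM in WT 1, WT 2, cKO 1 and cKO 2. Their part in the values of the 41 genes was not tested.

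The summed level of the 41 genes was 2917 CPM in WT 1, 2820 CPM in WT 2, 2989 CPM in cKO 1 and 3026 CPM in cKO 2. Both cKO libraries were the higher, by a ratio of 1.05 between the means (3007 ± 25.7 CPM against 2869 ± 68.6 CPM, SD, n = 2 each). An exact permutation test of 2 libraries against 2 cannot go below 0.333, so none was run.

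**Figure D2:**
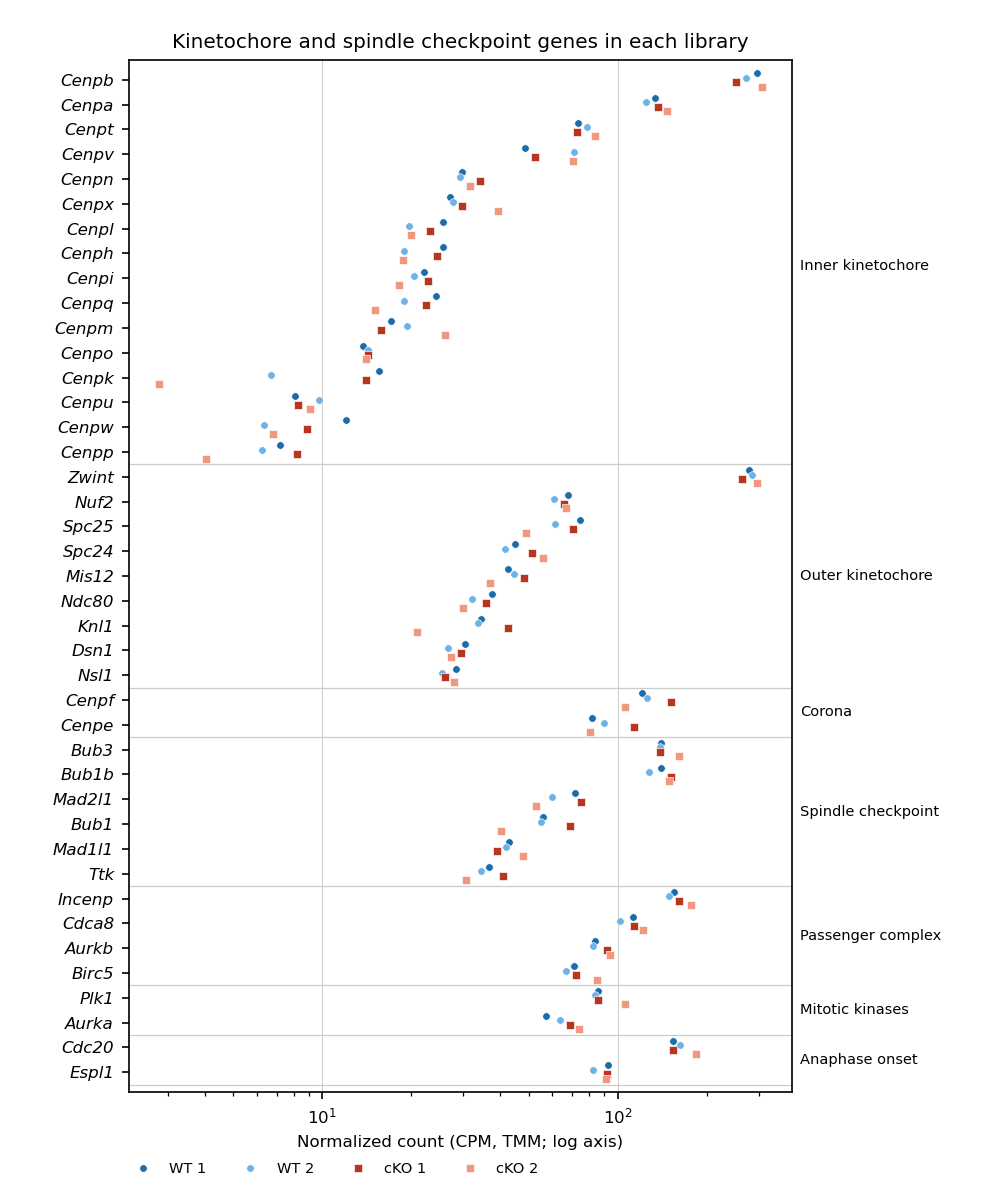
Normalized count (CPM by edgeR's TMM method, log axis) of each of the 41 genes in the 4 libraries, ordered by functional group and mean level; circles are WT and squares cKO. The spread between cKO 1 and cKO 2 is widest for Cenpk, at 14.1 and 2.80 CPM, while the 4 passenger complex genes have both squares to the right of both circles.

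Cell cycle genes of this kind are known to share promoter elements that a repressor complex of resting cells and an activator complex of dividing cells bind: the cell cycle homology element TTTGAA, which the DREAM and MuvB complexes recognize, CCAAT boxes bound by NF-Y, and E2F sites. Promoters from 250 bases before to 50 bases after the transcription start were given by RefSeq (GRCm38.p6) for 37 of the 41 genes, 42 promoters in all, and none was found for Incenp, Aurkb, Spc24 and Nsl1. With both strands searched, TTTGAA occurred in 17 of the 42 (40.5%), against 17.9% of the 32851 promoters of all genes. CCAAT occurred in 29 (69%) against 37.4%, and an E2F site (taken as TTTGGCGC or TTTCGCGC or TTTCCCGC or TTTGCCGC) in 4 (9.52%) against 2.26%. Both TTTGAA and CCAAT were found in 15 of the 42 (35.7%), against 6.95% of all promoters. Alternative promoters of 1 gene overlap in part and are not independent, and a match describes letters, not a bound site.

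Promoters of 5 genes are printed as examples picked from the 15 of 42 promoters that hold both elements. They do not stand for their functional groups, since the promoters of Birc5, Mad1l1 and Mad2l1 hold neither element. The printed promoters are those of Cenpa (chr5:30666636-30666935, plus strand), Bub1b (chr2:118597961-118598260, plus strand), Cdca8 (chr4:124936868-124937167, minus strand), Aurka (chr2:172370521-172370820, minus strand) and Cdc20 (chr4:118437294-118437593, minus strand). They are written 5′ to 3′ on the strand of the gene, and capitals mark matches of the cell cycle homology element and of the CCAAT box on either strand.
Cenpa: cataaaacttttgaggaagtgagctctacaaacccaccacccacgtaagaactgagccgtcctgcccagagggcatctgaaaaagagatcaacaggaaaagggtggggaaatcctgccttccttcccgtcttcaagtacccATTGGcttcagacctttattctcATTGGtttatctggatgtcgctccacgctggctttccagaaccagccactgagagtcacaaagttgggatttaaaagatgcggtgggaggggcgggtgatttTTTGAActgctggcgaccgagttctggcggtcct
Bub1b: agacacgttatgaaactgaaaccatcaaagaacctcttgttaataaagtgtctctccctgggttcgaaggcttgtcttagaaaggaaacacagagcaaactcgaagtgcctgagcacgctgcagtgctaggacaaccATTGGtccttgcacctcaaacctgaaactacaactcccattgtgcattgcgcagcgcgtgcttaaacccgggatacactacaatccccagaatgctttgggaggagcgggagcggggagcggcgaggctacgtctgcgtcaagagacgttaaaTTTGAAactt
Cdca8: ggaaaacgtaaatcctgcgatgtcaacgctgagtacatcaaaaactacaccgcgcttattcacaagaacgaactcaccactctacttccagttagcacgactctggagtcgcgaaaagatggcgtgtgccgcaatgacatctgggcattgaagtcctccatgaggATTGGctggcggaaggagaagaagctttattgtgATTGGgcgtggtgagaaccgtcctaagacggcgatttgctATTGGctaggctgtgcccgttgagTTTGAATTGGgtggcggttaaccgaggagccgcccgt
Aurka: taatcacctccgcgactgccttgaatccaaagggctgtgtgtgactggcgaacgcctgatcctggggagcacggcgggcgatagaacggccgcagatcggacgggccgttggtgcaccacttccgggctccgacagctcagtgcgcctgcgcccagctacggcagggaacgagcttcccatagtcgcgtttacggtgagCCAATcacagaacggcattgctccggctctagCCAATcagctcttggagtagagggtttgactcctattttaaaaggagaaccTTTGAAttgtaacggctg
Cdc20: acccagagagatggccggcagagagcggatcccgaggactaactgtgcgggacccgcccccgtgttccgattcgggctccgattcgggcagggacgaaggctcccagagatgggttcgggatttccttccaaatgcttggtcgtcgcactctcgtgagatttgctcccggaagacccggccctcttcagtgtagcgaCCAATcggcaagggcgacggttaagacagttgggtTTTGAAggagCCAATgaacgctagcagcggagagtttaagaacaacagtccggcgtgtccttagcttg
With the transcription start at 0, the TTTGAA of Aurka began at 32 and its CCAAT matches at -51 and -19, and the Cdc20 element at -18 lay between CCAAT matches at -53 and -8. In Cdca8 the element at 13 runs into an inverted CCAAT match at 18.

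**Figure D3:**
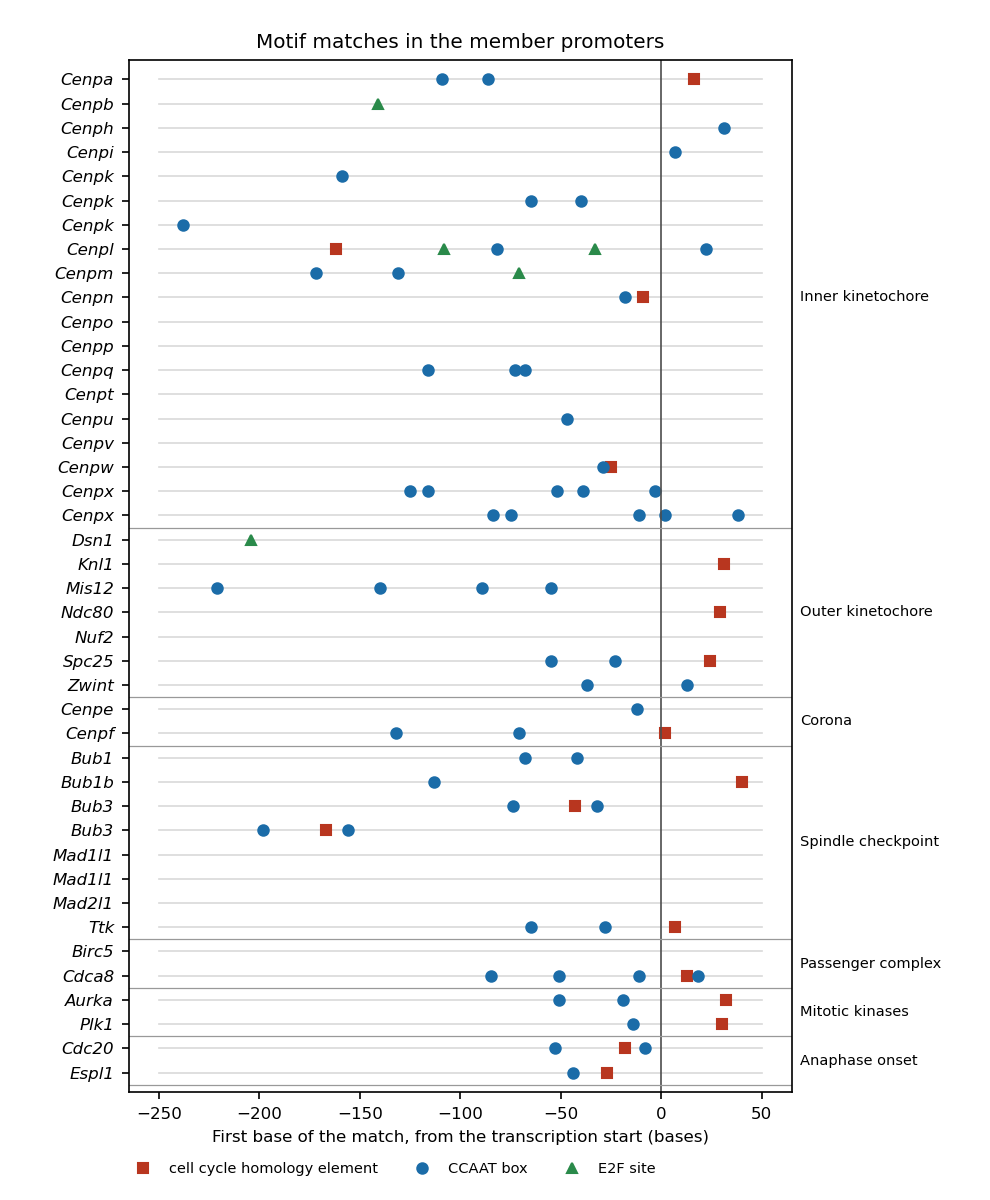
Position of the first base of each motif match in the 42 promoters of 37 genes, in bases from the transcription start (0), by functional group; squares are TTTGAA, circles CCAAT and triangles E2F sites, and a gene with alternative promoters has a row for each. TTTGAA matches lie from -43 to 40 around the start, apart from the Cenpl match at -162 and that of the second Bub3 promoter at -167, which is the same site as in the first.

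The inner kinetochore group held 16 genes: the centromeric histone H3 variant Cenpa, the satellite DNA-binding protein Cenpb, the constitutive network subunits Cenph, Cenpi, Cenpk, Cenpl, Cenpm, Cenpn, Cenpo, Cenpp, Cenpq, Cenpt, Cenpu, Cenpw and Cenpx, and Cenpv, a protein of the inner centromere. Log2 fold changes were above 0 for 7 and below 0 for 9, with a median of -0.03 and 0 of 16 called. The summed level was 779, 743, 739 and 814 CPM in WT 1, WT 2, cKO 1 and cKO 2, so cKO 1 was the lowest library and cKO 2 the highest.

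Cenpb had the highest count of the group (chr2, 131175182 to 131180067, minus strand). It measured 296 CPM in WT 1, 271 CPM in WT 2, 251 CPM in cKO 1 and 307 CPM in cKO 2. The cKO libraries enclosed the WT libraries, and the log2 fold change was -0.02 (SE 0.16, unadjusted p = 0.895, edgeR).

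Cenpx, which with Cenpw, Cenpt and a further histone-fold protein forms a DNA-binding tetramer, had the largest increase of all 41 genes. Its level was 27.1 CPM in WT 1, 27.7 CPM in WT 2, 29.7 CPM in cKO 1 and 39.3 CPM in cKO 2. Both cKO libraries were above both WT libraries, cKO 1 by little, and the log2 fold change was 0.33 (SE 0.20, 95% interval -0.12 to 0.79, unadjusted p = 0.1296, edgeR).

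Cenpk, a subunit of the Cenph and Cenpi subcomplex, had the largest decrease and by far the widest interval. It measured 15.6 CPM in WT 1 (271 counts), 6.68 CPM in WT 2 (123 counts), 14.1 CPM in cKO 1 (258 counts) and 2.80 CPM in cKO 2 (50 counts). The libraries numbered 1 were high and the libraries numbered 2 low under both labels, and the log2 fold change was -0.39 (SE 0.66, 95% interval -1.92 to 1.13, unadjusted p = 0.568, edgeR).

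Cenpw, the partner of Cenpt in that tetramer, was the other gene whose interval passed a 2-fold change. It measured 12.02 CPM in WT 1, 6.35 CPM in WT 2, 8.91 CPM in cKO 1 and 6.83 CPM in cKO 2. Both cKO values lay between the WT values, with a log2 fold change of -0.22 (SE 0.35, unadjusted p = 0.539, edgeR).

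The other inner kinetochore genes ranged in log2 fold change from -0.20 for Cenpq to 0.20 for Cenpm. The groups did not overlap for Cenpa (134 and 124 CPM in WT, 137 and 147 CPM in cKO) and Cenpn (29.7 and 29.3 CPM in WT, 34.2 and 31.7 CPM in cKO). Cenpo, Cenpp and Cenpu share 10% or more of their exonic bases with a gene on the opposite strand. The strand setting of the counting is not given in the sources used here. Reads of the partner may be among the counts of these genes, or reads of the shared bases may be missing from them. Neither was tested.

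The outer kinetochore group held 9 genes of the microtubule-binding network: Ndc80, Nuf2, Spc24 and Spc25 form the Ndc80 complex, Mis12, Dsn1 and Nsl1 belong to the Mis12 complex that links it to the inner kinetochore, and Knl1 with its partner Zwint is the platform for the checkpoint kinases. Log2 fold changes were above 0 for 3 and below 0 for 6, with a median of -0.01 and 0 of 9 called. Summed levels were 638, 611, 632 and 611 CPM in WT 1, WT 2, cKO 1 and cKO 2, and the 2 groups overlapped.

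Spc24 (chr9, 21755442 to 21760303, minus strand) had the smallest p of all 41 genes. It measured 44.7 CPM in WT 1, 41.4 CPM in WT 2, 51.2 CPM in cKO 1 and 55.7 CPM in cKO 2. The groups did not overlap, and the log2 fold change was 0.31 (SE 0.16, 95% interval -0.06 to 0.68, unadjusted p = 0.0895, adjusted p = 0.9999, edgeR).

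Spc25 pairs with Spc24 at the inner end of the complex, and its log2 fold change had the opposite sign. It measured 74.7 CPM in WT 1, 61.5 CPM in WT 2, 70.6 CPM in cKO 1 and 49.0 CPM in cKO 2, with a log2 fold change of -0.19 (SE 0.21). The other pair of the complex, Ndc80 and Nuf2, had log2 fold changes of -0.08 and 0.04. Whether the fold changes of Spc24 and Spc25 differ from each other was not tested.

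Zwint, with the highest count of the group, measured 278 CPM in WT 1, 285 CPM in WT 2, 263 CPM in cKO 1 and 297 CPM in cKO 2. The cKO libraries enclosed the WT libraries, and the log2 fold change was -0.01 (SE 0.15, unadjusted p = 0.956, edgeR). Knl1 had 34.5 and 33.6 CPM in WT and 42.6 and 20.99 CPM in cKO, so that WT lay between the cKO libraries, whose gap on the log2 scale was the widest of the 9 genes. Mis12 had a log2 fold change of -0.03, and those of Dsn1 and Nsl1 lay within 0.01 of 0.

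The corona genes encode the motor Cenpe, a kinesin that carries chromosomes to the spindle equator, and Cenpf, a large microtubule-binding protein that also recruits dynein. Cenpe measured 81.7 CPM in WT 1, 89.8 CPM in WT 2, 114 CPM in cKO 1 and 80.4 CPM in cKO 2. Cenpf measured 121 CPM in WT 1, 126 CPM in WT 2, 151 CPM in cKO 1 and 106 CPM in cKO 2. Both genes were highest in cKO 1 and lowest in cKO 2, with log2 fold changes of 0.18 (SE 0.19, unadjusted p = 0.376, edgeR) and 0.06 (SE 0.19, unadjusted p = 0.757, edgeR).

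The spindle checkpoint group held 6 genes: the kinases Bub1 and Ttk, the pseudokinase Bub1b, the adaptor Bub3, and Mad1l1 and Mad2l1, which at unattached kinetochores convert Mad2 to its Cdc20-binding form. Log2 fold changes were above 0 for 4 and below 0 for 2, with a median of 0.02 and 0 of 6 called, and the summed level was 487, 458, 514 and 481 CPM in WT 1, WT 2, cKO 1 and cKO 2. The groups overlapped for 5 of the 6.

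Bub1b, the BubR1 subunit of the complex that inhibits Cdc20, had the smallest p of the group (chr2, 118598211 to 118641591, plus strand). It measured 140 CPM in WT 1, 128 CPM in WT 2, 151 CPM in cKO 1 and 149 CPM in cKO 2. Both cKO libraries were above both WT libraries, with a log2 fold change of 0.16 (SE 0.14, unadjusted p = 0.295, edgeR).

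Bub3, which binds phosphorylated Knl1, measured 140 CPM in WT 1, 139 CPM in WT 2, 139 CPM in cKO 1 and 161 CPM in cKO 2. Only cKO 2 stood above the rest, and the log2 fold change was 0.10 (SE 0.15, unadjusted p = 0.515, edgeR). Bub1, Mad2l1 and Ttk were each highest in cKO 1 and lowest in cKO 2, Bub1 with 68.8 against 40.2 CPM, and Mad1l1 was the reverse.

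The chromosomal passenger complex was the 1 functional group of the 7 in which every gene had both cKO libraries above both WT libraries (4 of 4, against 11.0% of all genes tested). The complex, built from the kinase Aurkb, the scaffold Incenp, Birc5 (survivin) and Cdca8 (borealin), corrects faulty microtubule attachments and later acts in cytokinesis. Summed levels were 421, 401, 439 and 478 CPM in WT 1, WT 2, cKO 1 and cKO 2, a ratio of 1.11 between the means. Log2 fold changes ran from 0.13 to 0.19, with 0 of 4 called, and the upper 95% bounds did not pass 0.55. After the adjustment for GC content described below, only Aurkb and Incenp of the 4 kept both cKO libraries above both WT libraries, cKO 1 lying between the WT libraries for Birc5 and Cdca8, and both mitotic kinases then had both cKO libraries above.

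Incenp (chr19, 9872297 to 9899533, minus strand) measured 154 CPM in WT 1, 149 CPM in WT 2, 161 CPM in cKO 1 and 176 CPM in cKO 2, with a log2 fold change of 0.15 (SE 0.14, unadjusted p = 0.320, edgeR). Birc5 measured 71.3 CPM in WT 1, 67.0 CPM in WT 2, 72.2 CPM in cKO 1 and 85.2 CPM in cKO 2, with a log2 fold change of 0.19 (SE 0.16, unadjusted p = 0.267, edgeR). In both genes cKO 1 was close to WT 1 and cKO 2 stood above it. Aurkb had 83.6 and 82.7 CPM in WT against 92.0 and 94.1 CPM in cKO, and Cdca8 had 112 and 102 CPM in WT against 113 and 122 CPM in cKO.

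**Figure D4:**
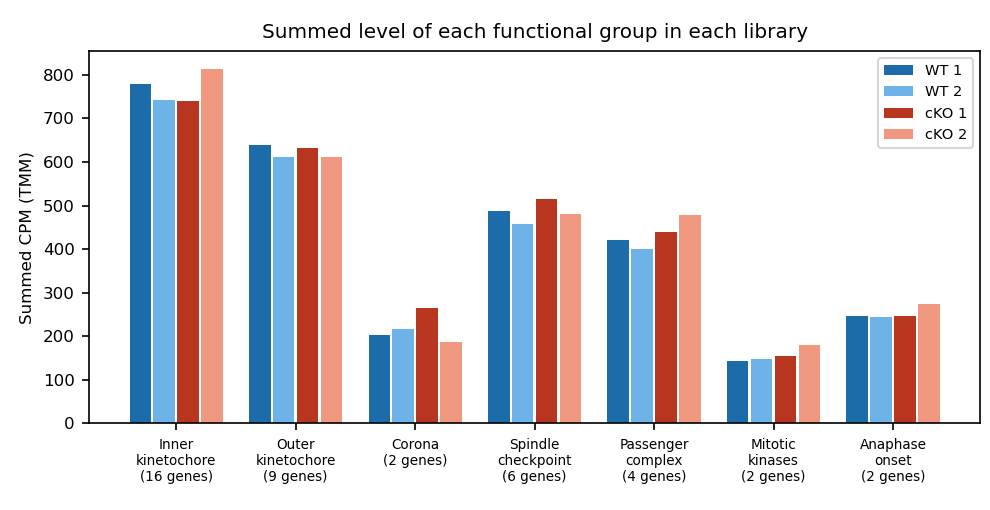
Summed CPM of each functional group in the 4 libraries (bars, 1 per library, axis from 0; the number of genes is under each group). Bars are compared within a group only, since groups differ in gene number and length. Both cKO bars exceed both WT bars for the passenger complex (439 and 478 against 421 and 401 CPM) and the mitotic kinases (154 and 180 against 143 and 147 CPM). The same holds for anaphase onset, with cKO 1 higher by little (245.9 and 275.1 against 245.7 and 244.5 CPM). For the corona, WT lies between cKO 1 and cKO 2.

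Of the mitotic kinases, Aurka, which drives centrosome maturation and spindle assembly, measured 57.3 CPM in WT 1, 63.6 CPM in WT 2, 68.6 CPM in cKO 1 and 73.8 CPM in cKO 2. Its groups did not overlap, and the log2 fold change was 0.24 (SE 0.15, 95% interval -0.12 to 0.59, unadjusted p = 0.162, edgeR). Plk1, a kinase of mitotic entry that also acts at kinetochores, measured 85.8 CPM in WT 1, 83.6 CPM in WT 2, 85.8 CPM in cKO 1 and 106 CPM in cKO 2. Only cKO 2 was higher, and the log2 fold change was 0.18 (SE 0.16, unadjusted p = 0.294, edgeR).

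At anaphase onset, Cdc20 measured 153 CPM in WT 1, 162 CPM in WT 2, 154 CPM in cKO 1 and 184 CPM in cKO 2. The groups overlapped, with a log2 fold change of 0.10 (SE 0.16, unadjusted p = 0.532, edgeR). Espl1, the protease separase, had 92.3 and 82.7 CPM in WT and 91.7 and 91.2 CPM in cKO, with a log2 fold change of 0.06 (SE 0.15).

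Levels of different genes were compared only per kilobase of exonic sequence in GENCODE M21, as CPM per kilobase. Cdc20, the target of the checkpoint, had the highest level, at 82.1, 86.6, 82.6 and 98.4 in WT 1, WT 2, cKO 1 and cKO 2, above every library of any other gene here. Zwint and Cenpb followed with means of 63.3 and 57.6, and their libraries overlapped (59.2 to 66.9 and 51.3 to 62.9). Plk1 and Incenp came next at means of 41.1 and 37.1, also overlapping. The lowest levels were those of Cenpp, Cenpu, Cenpw, Cenpo and Cenpk, with means of 2.50, 2.201, 2.03, 1.94 and 1.87, all subunits of the constitutive network, each overlapping its neighbours in this order. Levels per kilobase rest on the union of all annotated exons, which is longer than the transcript in use for genes with rare long isoforms. Those of Cenpo, Cenpp and Cenpu are further limited by the exonic bases they share with another gene.

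Libraries of the same label lay as far apart as libraries of different labels. On a log2 scale of CPM with a pseudocount of 1, the median absolute difference over the 41 genes was 0.25 between the cKO libraries and 0.13 between the WT libraries. Between a cKO and a WT library it was 0.11 to 0.24. Over all genes tested the same values were 0.26, 0.16 and 0.14 to 0.23. Of the 8 genes whose cKO libraries lay at least 0.5 apart, 7 (Bub1, Cenpf, Cenpk, Cenpp, Cenpq, Knl1 and Spc25) were lower in cKO 2 and had a GC content under 44%. The eighth, Cenpm, was higher in cKO 2 with 55.9%. The other genes under 44% lay less than 0.5 apart. Of these only Zwint and Nuf2 were higher in cKO 2, with log2 ratios of cKO 2 to cKO 1 of 0.18 and 0.02.

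The log2 ratio of cKO 2 to cKO 1 followed the GC content of the longest transcript. Across the 41 genes, which share the same 2 libraries and run from 35.8% to 61.6% GC, Pearson's r was 0.76, and over the 10158 genes above 10 CPM with a GC value it was 0.70. The 9 genes under 42% GC had a median log2 ratio of -0.50, the 15 from 42% to 48% one of -0.25, the 8 from 48% to 54% one of 0.10 and the 9 above 54% one of 0.29. The corresponding medians of all genes above 10 CPM were -0.55, -0.22, 0.08 and 0.28. Between WT 2 and WT 1 r was 0.57 for the 41 genes and 0.23 for all genes, and the median GC content of the 41 was 47.2% against 49.8% for genes above 10 CPM.

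**Figure D5:**
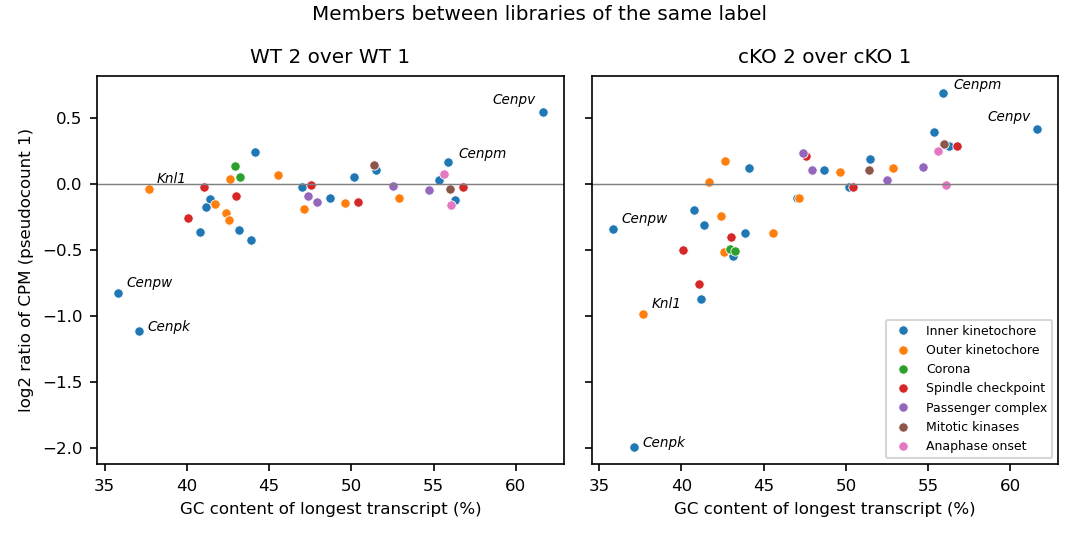
Log2 ratio of CPM (pseudocount 1) between libraries of the same label against the GC content of the longest transcript, for WT 2 over WT 1 (left) and cKO 2 over cKO 1 (right); each point is 1 of the 41 genes, coloured by functional group. On the right the points climb from -1.99 for Cenpk at 37.1% GC to 0.69 for Cenpm at 55.9%, and on the left Cenpk and Cenpw lie lowest, at -1.11 and -0.82.

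The first 150 coding bases of Cenpk (chr13:104228611-104252392, plus strand), whose libraries differed most, and of Spc24 (chr9:21755442-21760303, minus strand), which had the smallest p, are set side by side to show how their coding sequences differ in base content. They come from the longest coding transcript of each gene in GENCODE M21, spliced across its exons, with G and C in capitals.
Cenpk: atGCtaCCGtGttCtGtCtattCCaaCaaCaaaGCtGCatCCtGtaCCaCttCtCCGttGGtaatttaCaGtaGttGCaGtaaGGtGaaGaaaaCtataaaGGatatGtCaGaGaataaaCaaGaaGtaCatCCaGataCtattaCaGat
Spc24: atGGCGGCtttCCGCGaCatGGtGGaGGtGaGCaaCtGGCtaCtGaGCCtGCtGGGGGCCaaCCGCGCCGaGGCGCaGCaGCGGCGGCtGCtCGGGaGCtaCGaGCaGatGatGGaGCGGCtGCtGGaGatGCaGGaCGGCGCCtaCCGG
The stretch is 37.3% G and C in Cenpk and 68.7% in Spc24, and the whole coding sequence 36.4% and 60.4%. The longest transcript, whose GC content is the measure used above, is 37.1% in Cenpk and 52.9% in Spc24. By that measure the contrast is smaller.

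Fold changes were therefore also computed with each library's trend with GC content removed, an adjustment chosen after the data were seen. After it, r between GC content and the log2 ratio of cKO 2 to cKO 1 was 0.15 for the 41 genes and -0.01 for all genes above 10 CPM. Between WT 2 and WT 1 r was 0.36 for the 41 genes and 0.01 for all genes, so a trend remained among the 41. The values near 0 over all genes follow from the adjustment itself. The median log2 fold change of the 41 genes became 0.10, against 0.00 over all genes. It was above 0 for 33 of the 41, against 8153 of the 16145 genes tested. The sign turned to positive for 11 genes (Bub1, Mad2l1, Cenph, Cenpi, Cenpl, Cenpu, Cenpw, Dsn1, Knl1, Ndc80 and Zwint) and to negative for 2 (Mad1l1 and Nsl1). Both cKO values were above both WT values for 13 genes (31.7%), against 13.9% of all genes. Of these 13, 8 were also among the 10 without the adjustment: Bub1b, Cenpa, Cenpn, Cenpx, Aurka, Spc24, Aurkb and Incenp. With the adjustment 1 of 41 genes, Spc24, had an unadjusted p of at most 0.05, against 1.94% of all genes (log2 fold change 0.28, SE 0.12, unadjusted p = 0.0442, adjusted p = 0.9994, edgeR).

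Single libraries decided which genes came near a threshold. The fits that leave out a library assume that the lone library of a label varies as the other label does, and in them 0 of 41 genes had an adjusted p under 0.05. Without cKO 1, 10 of 41 genes (24.4%) had an unadjusted p of at most 0.05, against 15.0% of all genes, with Cenpx, Cenpm, Plk1, Spc24 and Birc5 higher and Knl1, Cenpk, Bub1, Spc25 and Cenpq lower. Of these, 1 (Cenpk, log2 fold change -1.985) passed a 2-fold change, against 3.14% of all genes. Without cKO 2, 3 of 41 (7.32%) had such a p, against 2.67% of all genes, namely Cenpe, Cenpf and Bub1, all higher. Bub1 was thus lower with cKO 2 alone (-0.46) and higher with cKO 1 alone (0.32). Without WT 2 the count was 1 of 41 (Cenpk, -0.87), against 3.83%, and without WT 1 it was 0 of 41, against 0.752%.

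Compared by same-numbered libraries, which share only a number, 11 of the 41 genes had the higher level in the cKO library of both pairs, against 19.5% of all genes. Lower in both were 5 of 41, against 22.3%, and 25 of 41 went opposite ways, against 58.2%.

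Other genes of the pathway, taken from a list of 57 symbols with older names included, were tested in the same fit. The 51 found include loading factors of Cenpa, the Ska and Rod-Zw10-Zwilch complexes, microtubule depolymerases, subunits of the anaphase-promoting complex, cohesin and its regulators, and cyclin B with Cdk1, and all passed the filter. At the study's thresholds 0 of 51 were called, against 0.811% of all genes. Log2 fold changes were above 0 for 31 (60.8%) and below 0 for 20, against 47.9% above 0 over all genes. Their median was 0.07, against -0.01 over all genes. Both cKO values were above both WT values for 10 of 51, against 11.0% of all genes, and below for 0, against 10.8%. The smallest p values were those of 2 subunits of the anaphase-promoting complex and of the ubiquitin-conjugating enzyme that extends its chains: Anapc7 had 81.4 and 83.6 CPM in WT and 89.2 and 100.1 CPM in cKO (log2 fold change 0.20, SE 0.15, unadjusted p = 0.214, edgeR), Anapc11 had a log2 fold change of 0.19 and Ube2s one of 0.20.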

How the data were processed

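Total RNA of 4 libraries (2 WT, 2 cKO) was sequenced on an Illumina HiSeq. The authors deposited raw counts of reads per gene; the submitters' notes name Bowtie2 2.2.3, TopHat2 2.0.12, HTSeq 0.6.0 and mm9, without roles. Strand setting, duplicates and reads shared by paralogs are not given in the sources used here. The positions in the table are within 1 base of GENCODE M21 (GRCm38) at the start or end for 97.3% of 27232 genes and for all 41 members, so they were read as GRCm38. Of 27304 rows, 11 (0.0403%) name no gene and were left out. A second deposited table, of cKO 1 and WT 1, held identical counts for all 41 genes. The deposited fold changes, p-values and annotation columns were not used.

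The whole table entered edgeR's quasi-likelihood test (edgeR 4.0.16, R 4.3.3, two-sided, TMM factors, filterByExpr, no covariate), with Benjamini-Hochberg adjustment over 16145 genes, with DESeq2 1.42.0 as an alternative. CPM were scaled by TMM. At these depths 1 count is worth 0.0540 to 0.0581 CPM. GC content is that of the longest GENCODE M21 transcript, and the GC adjustment subtracts a lowess curve (span 0.3) per library as an offset. The edgeR fit was tried on simulated counts with planted changes of 2-fold or more and no trend with GC content. That trial does not cover the smaller differences of the members or the GC trend of these libraries.

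The named genes are every member, with values in every library for the smallest p and the highest CPM in each functional group and the 5 largest fold changes; other values were added after they were seen. Members, functional groups, marker and pathway lists and tests were chosen with earlier results of these data known.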

Additional observations from a re-analysis of the deposited data

How the results depend on the processing

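The counts of 41 genes called at the study's thresholds and at an unadjusted p of at most 0.05 were 0 with RLE or upper-quartile factors, with no filter beyond 1 count, with at least 10 counts in every library and with DESeq2. In the same order, 1.2%, 1.27%, 2.78%, 1.03% and 0.787% of all genes had such a p. The study's thresholds were passed by 127, 137, 405, 72 and 65 of all genes. Leaving out a library in turn gave 0 to 10 genes at an unadjusted p of at most 0.05, 0 to 1 at the study's thresholds and 0 to 2 of the other pathway genes, the highest of each without cKO 1. The GC adjustment gave 1 gene (Spc24) at an unadjusted p of at most 0.05. The median log2 fold change ran from 0.033 to 0.10 when a library was left out, and was 0.10 with the GC adjustment. The ratio of summed levels, 1.05, was 1.013 by geometric means and 1.03 to 1.07 when a library was left out.

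Nothing states what the replicate numbers mark. Deviations of same-numbered libraries correlated over genes at r = 0.10. With the replicate number as a block, 1 of 41 genes (2.44%) had an unadjusted p of at most 0.05, Cenpk (log2 fold change -0.64), against 3.31% of all genes, and 0 had an adjusted p under 0.05.

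Of 165 alternative values of the 15 genes given in every library, 143 kept their direction and side of the threshold, 10 passed an unadjusted p of 0.05 and 12 changed sign. Leaving out a library in turn turned the sign of the log2 fold change of 7 genes, which ran from -1.985 to 0.36 for Cenpk, -0.60 to 0.31 for Cenpw, -0.16 to 0.12 for Cenpb, -0.086 to 0.079 for Zwint, -0.090 to 0.42 for Cenpe, -0.22 to 0.31 for Cenpf and -0.018 to 0.22 for Cdc20. The GC adjustment turned it for Cenpw (0.15) and Zwint (0.12). Apart from the GC adjustment, which removes a trend by construction, the cause was not tested. The lowest count of a member in a library was 50 (Cenpk in cKO 2).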
